A study of Mus musculus with 6 samples.

Results

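The tumour necrosis factor (TNF) superfamily was examined in urethane-induced lung tumours and in control lung of mice. Members were taken by gene name: every name that starts with Tnfsf or Tnfrsf and a digit, together with Tnf, Lta, Ltb, Ltbr, Cd40, Cd40lg, Fas, Ngfr, Traf1, Traf2 and Traf3. This gave 42 of the 33924 names in the deposited table, made up of 15 ligands, 24 receptors and 3 adaptors. The ligands are mostly membrane-bound trimers that can be shed, and they engage receptors on neighbouring cells. Receptors with a death domain can start apoptosis, most of the others recruit TRAF adaptors and activate NF-kB, and decoy receptors bind a ligand without passing on its signal. In the lung and in tumours the family is known for inflammation, costimulation of lymphocytes, survival of B cells, organisation of lymphoid tissue and killing of tumour cells.

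RNA from 6 bulk samples was sequenced. The tumour group held 3 libraries from lung tumours (replicates 1, 2 and 4) of mice that had received urethane, a chemical carcinogen, by intraperitoneal injection at 1 g per kg. The control group held 3 libraries from normal lung (replicates 1, 2 and 3), and the treatments named for the study are saline and urethane. Both groups were FVB/NJ mice, an inbred strain, and both were harvested at 6 months. The labels give neither a sex, nor the age at injection, nor how tumour was separated from the lung around it. They do not say whether each library came from its own animal, so p-values measure only how far these libraries spread, and that spread may be partly technical.

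Totals were 48509129 to 62336537 counted reads in tumours and 38996532 to 59037341 in control lung. At these depths 3 counts stand for 0.0456 to 0.0815 CPM (read counts scaled to library size) in 1 library, which covers counting error only. Tumour replicate 2 stood apart in sex-linked genes, with 3360 CPM of Xist and 0.216 CPM of the Y-linked gene Kdm5d; elsewhere Xist reached no more than 32.9 CPM and Kdm5d was never under 37.6 CPM. Marker lists of cell types set the 2 tissues far apart. Of the markers of alveolar type 2 (AT2) cells, which make surfactant, 7 of 8 rose in tumours, and their summed level was 24265 to 56241 CPM in tumours and 8410 to 13804 CPM in control lung. All 6 airway markers fell, with sums of 13.2 to 33.7 CPM in tumours and 9817 to 16423 CPM in control lung. All 8 endothelial markers and all 7 neutrophil markers fell as well, with sums of 191 to 277 CPM and 7.70 to 45.3 CPM in tumours against 1798 to 2620 CPM and 347 to 525 CPM in control lung.

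Both directions occurred within the family. Of the 42 members, 40 passed the filter on low counts, and 22 of these changed: 8 rose in tumours and 14 fell (edgeR quasi-likelihood test, adjusted p under 0.05 over all genes tested). That is 55% of the members tested, beside 42.0% of all 20001 genes tested, with 18.1% of all genes higher and 23.8% lower. Levels of the groups did not overlap for 25 members, 9 higher and 16 lower in tumours, beside 56.0% of all genes. The share of members without overlap is therefore near that of all genes. The median log2 fold change was -0.22 over the members and 0.01 over all genes. All 22 changed members were at least 2-fold apart by the fitted fold change, with a gap of at least 4-fold in 4 that rose and in 8 that fell. Tested against a 2-fold change, 12 members passed, 3 higher and 9 lower. Without tumour replicate 2, 22 members changed, 8 higher and 14 lower, and 21 of them also changed with it.

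**Figure D1:**
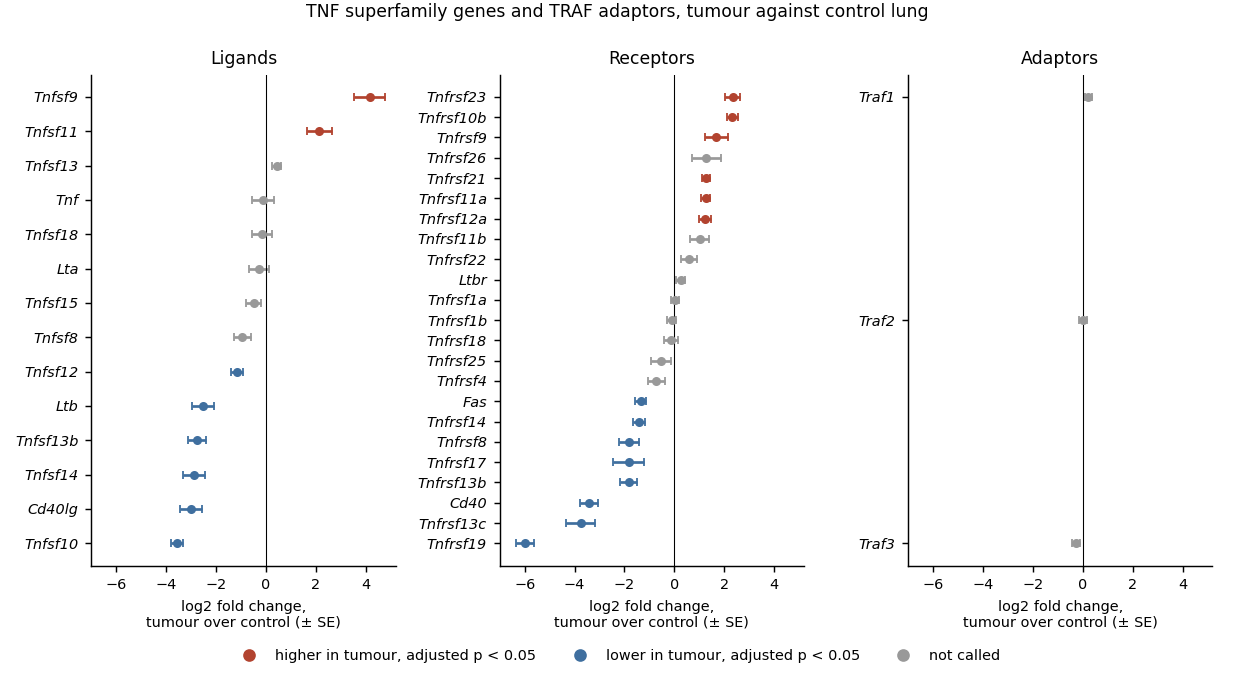
Log2 fold change (tumour over control, horizontal axis) of the 40 members tested, with bars of 1 standard error, for ligands, receptors and adaptors; red marks members higher and blue members lower in tumours at an adjusted p under 0.05, grey the others. Tnfsf9 at 4.16 and Tnfrsf19 at -6.00 are the extremes, and all 3 adaptors lie near 0.

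Sequences of the members show which values can be read as those of a single gene. Tnfrsf22 and Tnfrsf23 encode decoy receptors for the ligand TRAIL in the mouse, and they lie next to each other on chromosome 7 beside the related Tnfrsf26. Over the aligned coding bases Tnfrsf22 and Tnfrsf23 were 90.6% identical, against 65.2% for Tnfrsf22 and Tnfrsf26 and 61.8% for Tnfrsf23 and Tnfrsf26. The longest run shared by Tnfrsf22 and Tnfrsf23 was 102 bases. Of the 32-base words of their transcripts, 39.7% (Tnfrsf22) and 33.7% (Tnfrsf23) also occur in another gene, so the split of reads between these paralogs is uncertain. A stretch of 120 coding bases from each is shown to compare them (GENCODE M21, GRCm38, span on the genome with introns); capitals mark the 18 bases at which they differ.
Tnfrsf22 coding bases 77 to 196 (chr7:143644781-143649555, minus strand): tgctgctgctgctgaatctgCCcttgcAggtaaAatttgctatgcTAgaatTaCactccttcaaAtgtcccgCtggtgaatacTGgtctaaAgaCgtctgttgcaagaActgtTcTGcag
Tnfrsf23 coding bases 47 to 166 (chr7:143681460-143685810, minus strand): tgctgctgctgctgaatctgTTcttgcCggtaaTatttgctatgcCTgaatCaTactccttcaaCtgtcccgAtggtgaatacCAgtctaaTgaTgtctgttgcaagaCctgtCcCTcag

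Promoters are shown for the members in which any of 3 searched forms of the kappaB motif, bound by NF-kB, was found. All 3 begin with GGGA. Forms that begin otherwise were not searched, so the remaining windows are not read as free of the motif. The windows run from 250 bases before to 50 bases after the start of the gene in RefSeq (GRCm38.p6), and 37 windows of 33 members were matched; the others are Cd40, Cd40lg, Tnfrsf10b, Tnfrsf11b, Tnfrsf22, Tnfrsf26, Tnfsf12, Tnfsf4 and Tnfsf9. GGGA and TTCC with 2 bases of any kind between them were found in the window of Ltb, on the minus strand. GGGAA and CCC with 2 such bases between them were found in Tnfrsf13b, on the plus strand. They were also found in 1 of the 2 windows of Tnfrsf9, on the minus strand. There the same bases also match GGGA, 2 such bases and TCCC. Both strands were searched, and of all 32851 promoters 1.47%, 1.75% and 0.664% hold these 3 forms. Capitals mark the matches, which start 42 bases before the gene's start in Tnfrsf9, 87 in Ltb and 61 in Tnfrsf13b; the other capitals in Tnfrsf9 are a match to TGANTCA, the AP-1 motif, held by 7.81% of all promoters. Tnfrsf9 was higher in tumours, whereas Ltb and Tnfrsf13b were lower.
Tnfrsf9 promoter (chr4:150927749-150928048, plus strand): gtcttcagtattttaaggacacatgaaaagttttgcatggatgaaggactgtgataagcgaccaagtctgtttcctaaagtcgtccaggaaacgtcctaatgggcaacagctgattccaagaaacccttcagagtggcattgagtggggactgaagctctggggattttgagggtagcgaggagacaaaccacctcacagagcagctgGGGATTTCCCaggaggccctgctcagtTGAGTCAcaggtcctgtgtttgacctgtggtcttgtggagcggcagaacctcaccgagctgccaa
Ltb promoter (chr17:35194257-35194556, plus strand): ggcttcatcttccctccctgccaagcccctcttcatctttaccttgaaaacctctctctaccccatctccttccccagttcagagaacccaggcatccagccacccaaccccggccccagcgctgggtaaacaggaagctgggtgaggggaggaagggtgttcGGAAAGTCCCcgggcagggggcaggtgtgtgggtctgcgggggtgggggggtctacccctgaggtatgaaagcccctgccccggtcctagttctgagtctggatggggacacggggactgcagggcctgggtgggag
Tnfrsf13b promoter (chr11:61126505-61126804, plus strand): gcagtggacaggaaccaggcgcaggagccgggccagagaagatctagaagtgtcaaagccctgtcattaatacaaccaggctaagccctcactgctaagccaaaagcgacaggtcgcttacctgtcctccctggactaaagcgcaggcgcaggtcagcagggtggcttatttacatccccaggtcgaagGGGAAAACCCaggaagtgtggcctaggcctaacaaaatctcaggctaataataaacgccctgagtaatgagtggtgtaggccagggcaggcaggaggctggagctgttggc

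Among the 14 ligands tested, 2 rose and 6 fell, with a median log2 fold change of -0.72. That is 57.1% changed, beside 42.0% of all genes. The ligand that rose most was Tnfsf9 (4-1BBL), which costimulates activated T cells (mm9 chr17:57244808-57247180, plus strand). Its level was 6.72, 27.7 and 25.7 CPM in tumours and 1.90, 0.699 and 0.833 CPM in control lung, here and below in the order of replicates 1, 2 and 4 for tumours and 1, 2 and 3 for control lung. Tumour replicate 1 was well below the other tumours, yet above every control library. The log2 fold change was 4.16 ± 0.63 (SE; adjusted p = 0.00106), or 17.9-fold. Of the words of the Tnfsf9 transcript, 12.8% occur in another gene.

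Tnfsf11 (RANKL), known for driving osteoclast formation and for growth of mammary epithelium, was the other ligand that rose. It had 3.61, 1.69 and 1.28 CPM in tumours and 0.598, 0.608 and 0.284 CPM in control lung. Tumour replicate 1 was the highest library, and the groups did not overlap. Its log2 fold change was 2.14 ± 0.51 (adjusted p = 0.0102).

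The sharpest fall of a ligand was that of Tnfsf10 (TRAIL), which triggers apoptosis through death receptors (mm9 chr3:27215950-27241349, plus strand). Tnfsf10 had 9.91, 17.5 and 14 CPM in tumours and 144, 170 and 176 CPM in control lung. Every tumour library was far below every control library. It was 11.9-fold lower, at a log2 fold change of -3.57 ± 0.24 (adjusted p = 2.45e-05). In bulk tissue, fewer cells of a type and less RNA per cell cannot be told apart, here or for any member below. The endothelial and neutrophil markers fell with it. So did 2 of 3 general leukocyte markers, with sums of 85.1 to 265 CPM in tumours and 455 to 561 CPM in control lung, and the part of these cells in the result was not tested.

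The other ligands that fell were Ltb, Tnfsf14, Cd40lg, Tnfsf13b and Tnfsf12. Ltb, the subunit that anchors the lymphotoxin heterotrimer in the membrane, had 1.16, 2.77 and 0.868 CPM in tumours and 7.12, 11.5 and 9.10 CPM in control lung. Tumour replicate 2 was the highest of the tumours but still below all controls. Ltb had a log2 fold change of -2.53 ± 0.45 (adjusted p = 0.00258), which was -3.18 without tumour replicate 2. Tnfsf14 (LIGHT), which shares receptors with lymphotoxin, had 0.294, 0.575 and 0.174 CPM in tumours and 2.50, 2.60 and 2.64 CPM in control lung. All control libraries lay close together and above the tumours. Tnfsf14 fell by 2.87 ± 0.45 on the log2 scale (adjusted p = 0.00132). Cd40lg, by which helper T cells license B cells and dendritic cells, had 0.0981, 0.251 and 0.130 CPM in tumours and 1.30, 1.43 and 1.14 CPM in control lung. Only 26 reads of Cd40lg were counted over the 3 tumours, against 198 in control lung, and the groups did not overlap. Its log2 fold change was -2.99 ± 0.45 (adjusted p = 0.00102). Markers of T and NK cells moved with these ligands: 12 of 13 fell, and their sum was 15.7 to 31.2 CPM in tumours and 94.6 to 149 CPM in control lung. The exception was Foxp3, at 6.73 CPM in tumours and 7.08 CPM in control lung. No T and NK cell marker was at 0 in all tumours, and the part of these cells in the result was not tested.

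Tnfsf13b (BAFF), the survival factor of mature B cells, had 0.687, 1.71 and 1.32 CPM in tumours and 8.40, 8.02 and 8.92 CPM in control lung. Control libraries were nearly level and well above the tumours. The log2 fold change of Tnfsf13b was -2.77 ± 0.35 (adjusted p = 0.000455). Tnfsf12 (TWEAK), the ligand of the receptor Fn14 in tissue repair, had 5.31, 9.79 and 7.57 CPM in tumours and 17.3, 15.5 and 17.7 CPM in control lung. The groups did not overlap, and tumour replicate 1 was the lowest. Tnfsf12 fell by 1.15 ± 0.24 on the log2 scale (adjusted p = 0.00560). Of its exon bases, 48.3% lie inside exons of another name, BC096441, so its value includes reads that both names were given.

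Tnf itself, the founding cytokine of the family, had 0.850, 2.55 and 2.67 CPM in tumours and 1.93, 2.22 and 2.40 CPM in control lung. Tumour replicate 1 was the lowest library and the other tumours the highest, so the groups overlapped. Its log2 fold change was -0.11 ± 0.44 (adjusted p = 0.859), and 0.29 without tumour replicate 1. That library also had the lowest summed level of general leukocyte markers, 85.1 CPM against 265 and 218 CPM in tumour replicates 2 and 4, and the part of this in the level of Tnf was not tested. Among the others, Tnfsf13 (APRIL), a plasma cell survival factor, averaged 29.9 ± 5.03 CPM in tumours and 22.1 ± 3.58 CPM in control lung (SD, n = 3 each; adjusted p = 0.102). Without tumour replicate 1 the adjusted p of Tnfsf13 was 0.0171, at a log2 fold change of 0.60. Its exons share 60.0% of their bases with other names. Tnfsf8 (CD30 ligand) averaged 2.20 ± 0.615 CPM in tumours and 4.22 ± 1.41 CPM in control lung (SD, n = 3 each; adjusted p = 0.0622), without overlap. Tnfsf15 (TL1A), Lta (lymphotoxin alpha) and Tnfsf18 (GITR ligand) lay at -0.49, -0.28 and -0.16 in log2 fold change, with adjusted p of 0.212, 0.617 and 0.769. Tnfsf4 (OX40 ligand) had 11 reads over all tumours and 25 over control lung, and was not tested.

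**Figure D2:**
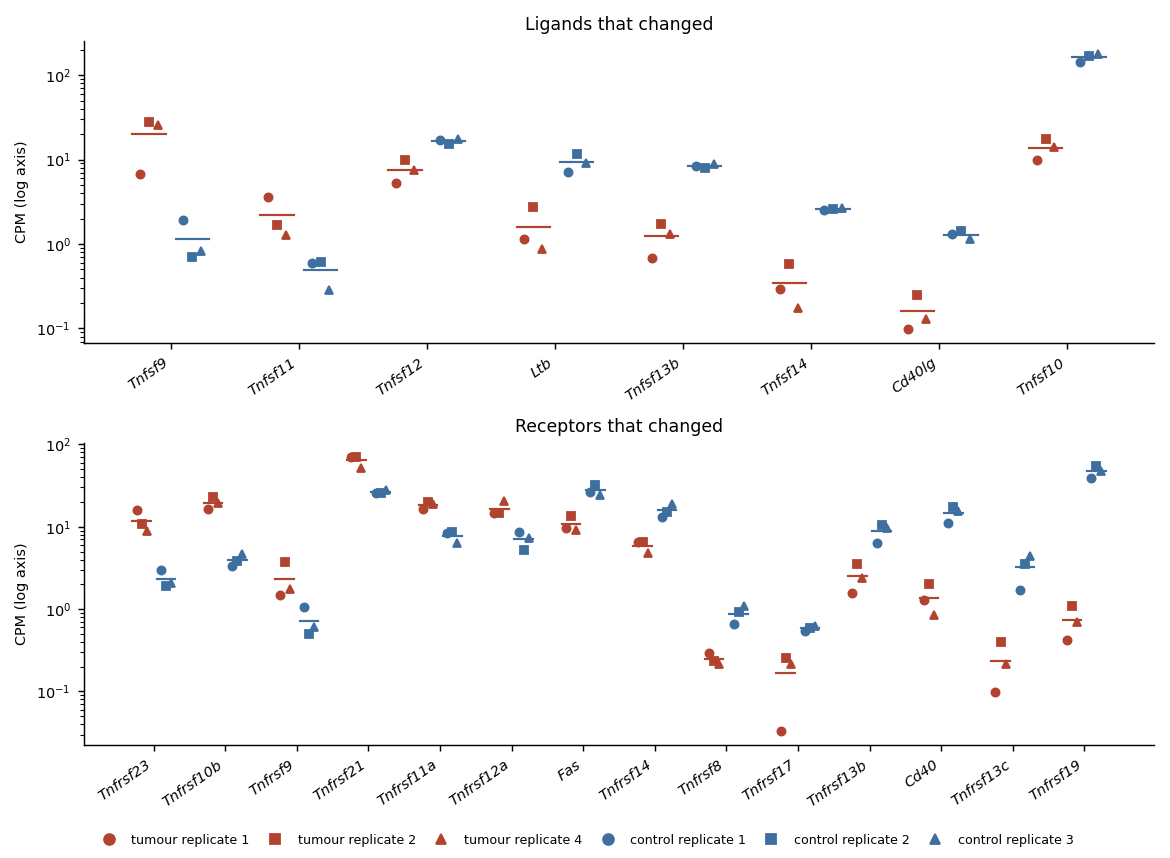
CPM of each library (log axis) for the 8 ligands and 14 receptors that changed; red points are tumour and blue points control libraries, the shape gives the replicate and each bar the group mean. In all 22 genes the red and blue points do not overlap.

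Compared per kilobase of exon, so that genes of different length can be set side by side, the ligands changed rank. The summed ligand level was 51.4 ± 16.9 CPM per kb in tumours and 81.6 ± 1.45 CPM per kb in control lung (SD, n = 3 each). Tnfsf10 made up 5.21% ± 0.626 of that sum in tumours and 38.0% ± 3.31 in control lung (mean and SD over 3 libraries, as for the shares that follow). Tnfsf9 made up 29.5% ± 10.8 in tumours and 1.15% ± 0.684 in control lung. The share of Tnfsf13 was 37.3% ± 7.6 in tumours and 16.6% ± 2.99 in control lung, and its groups of libraries did not overlap in this measure. For Tnfsf13b the shares were 2.42% ± 0.277 in tumours and 10.6% ± 0.538 in control lung. In tumours the leading ligands were thus Tnfsf13 and Tnfsf9, and in control lung Tnfsf10 and Tnfsf13. These are shares of a sum that differs between the groups, so they do not by themselves show a change of a gene. The table's model of Tnfsf13b has 977 exon bases against 4771 in the longest M21 transcript, so its level rests on that part of the transcript alone. Of the exon bases of Tnfsf13, 60.0% overlap other names, so its share can include reads of those names.

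**Figure D3:**
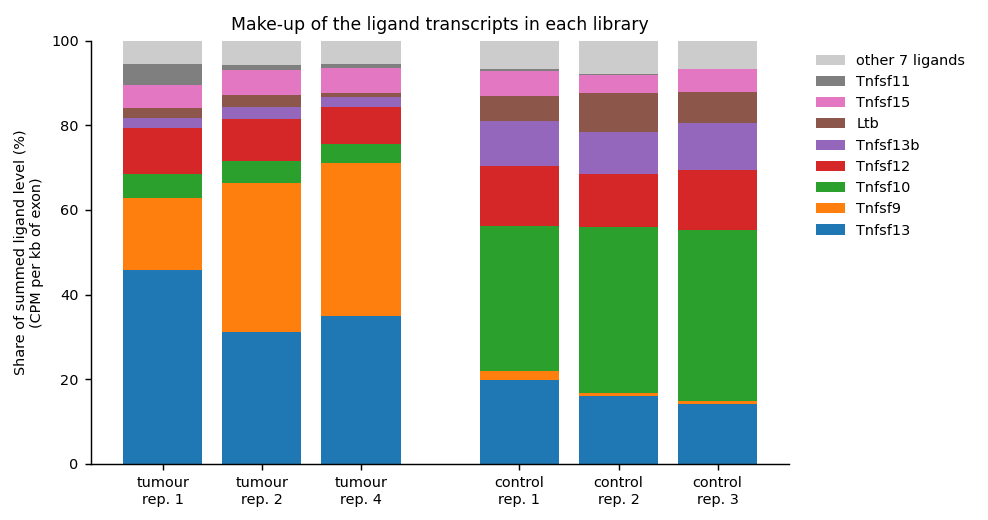
Share of each ligand (percent, vertical axis) in the summed ligand level per kb of exon, 1 bar per library, tumours on the left and control lung on the right. Tnfsf10 (green) averages 5.21% in tumours and 38.0% in control lung, and Tnfsf9 (orange) 29.5% in tumours and 1.15% in control lung.

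Of the 23 receptors tested, 6 rose and 8 fell (60.9% changed, beside 42.0% of all genes), with a median log2 fold change of -0.10. Their summed level per kb was 130 ± 11.9 CPM in tumours and 130 ± 8.31 CPM in control lung (SD, n = 3 each). Receptors of the TRAIL system were among those that rose. Tnfrsf10b (DR5), the death receptor for TRAIL in the mouse (mm9 chr14:70167279-70184210, plus strand), had 16.2, 23.2 and 19.4 CPM in tumours and 3.37, 3.81 and 4.61 CPM in control lung. All tumours were well above all controls. A rise of 2.31 ± 0.22 on the log2 scale was fitted for Tnfrsf10b (adjusted p = 0.000109). Of its words, 15.8% occur in another gene. Tnfrsf23, a TRAIL decoy receptor, had 15.9, 10.7 and 8.92 CPM in tumours and 3.02, 1.91 and 2.09 CPM in control lung. Replicate 1 was the highest library in both groups, and the groups did not overlap. Tnfrsf23 had a log2 fold change of 2.34 ± 0.31 (adjusted p = 0.000531).

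The paralog of Tnfrsf23 shown above, Tnfrsf22, averaged 7.88 ± 3.49 CPM in tumours and 5.29 ± 0.367 CPM in control lung (SD, n = 3 each; adjusted p = 0.184), with overlapping groups. Tnfrsf26 had 35.1, 7.20 and 7.94 CPM in tumours and 7.66, 7.46 and 5.52 CPM in control lung. Tumour replicate 1 alone was high, and the other tumours lay within or near the control range. Its log2 fold change was 1.29 ± 0.58 (adjusted p = 0.112), which was 0.17 (adjusted p = 0.559) without tumour replicate 1 and 1.65 (adjusted p = 0.0357) without tumour replicate 2. Tumour replicate 1 was the highest library for all 3 genes of this cluster. Tnfrsf26 and Tnfrsf22 lie 6852 bases apart, and Tnfrsf22 and Tnfrsf23 16147 bases (mm9). Tnfrsf11b (osteoprotegerin), a secreted decoy for RANKL that also binds TRAIL, had 4.48, 3.66 and 1.95 CPM in tumours and 1.85, 1.93 and 1.24 CPM in control lung. Tumour replicate 4 was only just above the controls. The adjusted p of Tnfrsf11b was 0.0625 at a log2 fold change of 1.01 ± 0.38, and 0.0210 without tumour replicate 4.

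Among other receptors that rose, Tnfrsf21 (DR6) carries a death domain and had 70.7, 69.6 and 51.7 CPM in tumours and 25.5, 25.7 and 27.8 CPM in control lung. Control libraries were level, and every tumour was higher. On the log2 scale Tnfrsf21 rose by 1.28 ± 0.16 (adjusted p = 0.000458). Tnfrsf11a (RANK), the receptor of RANKL, had 16.6, 20.2 and 18.9 CPM in tumours and 8.45, 8.54 and 6.36 CPM in control lung. Its groups were compact and apart. For Tnfrsf11a the log2 fold change was 1.26 ± 0.19 (adjusted p = 0.00115). Tnfrsf12a (Fn14), the TWEAK receptor induced in injured epithelium, had 14.5, 14.6 and 20.6 CPM in tumours and 8.67, 5.24 and 7.31 CPM in control lung. Tumour replicate 4 was the highest library, and there was no overlap. On the log2 scale Tnfrsf12a rose by 1.23 ± 0.25 (adjusted p = 0.00483). Of its exon bases, 8.1% overlap a gene on the opposite strand, Hcfc1r1, so its value can include reads of that gene. Tnfrsf9 (4-1BB), the receptor of Tnfsf9 on activated lymphocytes, had 1.47, 3.70 and 1.76 CPM in tumours and 1.06, 0.502 and 0.609 CPM in control lung. Tumour replicate 2 was high, and the other tumours were not far above control replicate 1, without overlap. The log2 fold change of Tnfrsf9 was 1.69 ± 0.48 (adjusted p = 0.0221), with an adjusted p of 0.0660 without tumour replicate 2, 0.0897 without control replicate 2 and 0.0936 without control replicate 3.

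The largest difference of the family was that of Tnfrsf19 (TROY), an orphan receptor of epithelial and stem cells known as a target of Wnt signalling (mm9 chr14:61582671-61665692, minus strand). Tnfrsf19 had 0.425, 1.10 and 0.694 CPM in tumours and 38.7, 55.4 and 47.9 CPM in control lung. No library came near the other group. It was 64.1-fold lower in tumours, at a log2 fold change of -6.00 ± 0.36 (adjusted p = 1.79e-05), on 119 reads in tumours and 7425 in control lung. In level per kb it was ranked 37 of the 42 members in tumours and 9 in control lung. Markers of fibroblasts and mural cells (9 of 10 lower, with sums of 253 to 478 CPM in tumours and 1023 to 1396 CPM in control lung) fell along with it, as did the airway and endothelial lists. Of the AT1 markers 4 fell and 1 rose, with sums of 432 to 576 CPM in tumours and 1699 to 1798 CPM in control lung. Their part in the fall of Tnfrsf19 was not tested.

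Fas, the death receptor of Fas ligand, had 9.55, 13.7 and 9.24 CPM in tumours and 26.4, 32.3 and 24.0 CPM in control lung. Tumours were all below the lowest control. Fas fell by 1.35 ± 0.21 on the log2 scale (adjusted p = 0.00135). Tnfrsf14 (HVEM), which binds LIGHT and lymphotoxin as well as the inhibitory partner BTLA, had 6.49, 6.48 and 4.77 CPM in tumours and 13, 15.2 and 19.1 CPM in control lung. The groups were apart in every library. For Tnfrsf14 the log2 fold change was -1.41 ± 0.23 (adjusted p = 0.00145). Tnfrsf8 (CD30), found on activated lymphocytes, had 0.294, 0.233 and 0.217 CPM in tumours and 0.652, 0.912 and 1.08 CPM in control lung. All libraries were low, on 41 reads in tumours and 137 in control lung, without overlap. Tnfrsf8 fell by 1.82 ± 0.39 on the log2 scale (adjusted p = 0.00605).

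Among receptors found on B cells, Cd40, Tnfrsf13c, Tnfrsf13b and Tnfrsf17 fell. Cd40, the receptor for T cell help on B cells and other antigen-presenting cells, had 1.28, 2.01 and 0.846 CPM in tumours and 11.2, 17.3 and 15.7 CPM in control lung. Each tumour was far below each control. Cd40 fell by 3.41 ± 0.36 on the log2 scale (adjusted p = 0.000171). Tnfrsf13c (BAFF receptor) had 0.0981, 0.395 and 0.217 CPM in tumours and 1.68, 3.53 and 4.43 CPM in control lung. Replicate 1 was the lowest library in both groups, and the groups did not overlap. The log2 fold change of Tnfrsf13c was -3.76 ± 0.59 (adjusted p = 0.00129), and -4.36 without tumour replicate 2.

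Tnfrsf13b (TACI), which binds BAFF and APRIL, had 1.57, 3.54 and 2.37 CPM in tumours and 6.36, 10.6 and 9.67 CPM in control lung. All tumours were below all controls. Tnfrsf13b fell by 1.84 ± 0.35 on the log2 scale (adjusted p = 0.00378). Tnfrsf17 (BCMA), found on plasma cells, had 0.0327, 0.251 and 0.217 CPM in tumours and 0.543, 0.593 and 0.630 CPM in control lung. Tumour replicate 1 was below the level of 3 counts, and the groups did not overlap. Its log2 fold change was -1.83 ± 0.62 (adjusted p = 0.0439), on 26 reads in tumours and 90 in control lung. The adjusted p of Tnfrsf17 was 0.0690 without tumour replicate 4, and 0.0917, 0.111 and 0.129 without control replicates 1, 2 and 3 in turn. Of 7 ligands and receptors that act on B cells, a group made after the values were seen, 6 fell, beside 23.8% of all genes lower, and Tnfsf13 did not pass the test. B and plasma cell markers moved with them: 7 of 9 fell, with a median of -3.66. The summed level of that list was 442 to 699 CPM in tumours and 326 to 430 CPM in control lung, since Sdc1, a plasma cell marker that epithelial cells also express, rose to 439 CPM in tumours against 104 CPM in control lung. Of the dendritic cell markers 7 of 8 fell, with sums of 56.4 to 197 CPM in tumours and 227 to 259 CPM in control lung. Of the 12 markers of macrophages and monocytes 4 fell and 2 rose, with sums of 239 to 510 CPM in tumours and 442 to 648 CPM in control lung. The part of any of these cells in the falls of the B cell ligands and receptors was not tested.

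The TNF receptors and the lymphotoxin beta receptor did not pass the test. Tnfrsf1a, the main TNF receptor and a death domain protein, had 62.9, 63.7 and 46.9 CPM in tumours and 51.6, 56.1 and 61.7 CPM in control lung. Tnfrsf1b, the TNF receptor of leukocytes and endothelium, had 44.7, 71.3 and 58.9 CPM in tumours and 61.9, 66.0 and 59.1 CPM in control lung. Ltbr, the lymphotoxin beta receptor, had 47.9, 37.4 and 31.8 CPM in tumours and 33.5, 29.8 and 35.2 CPM in control lung. All of these overlapped between the groups. Log2 fold changes were 0.03 ± 0.17 for Tnfrsf1a, -0.10 ± 0.19 for Tnfrsf1b and 0.25 ± 0.18 for Ltbr, with adjusted p of 0.887, 0.703 and 0.304. The T cell receptors Tnfrsf4 (OX40), Tnfrsf18 (GITR) and Tnfrsf25 (DR3) were at -0.72, -0.14 and -0.54 on the log2 scale (adjusted p of 0.120, 0.715 and 0.326). Of the exon bases of Tnfrsf18, 27.2% overlap a gene on the opposite strand, Gm16008, whose reads cannot be told apart from its own. Ngfr, the p75 neurotrophin receptor, had 23 reads over all tumours and 63 over control lung and was not tested.

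None of the 3 adaptors passed the test in edgeR, at an unadjusted p under 0.05 either, nor in DESeq2 or limma-voom. Traf1, itself induced by NF-kB, had 29.2, 29.0 and 26.7 CPM in tumours and 22.9, 23.1 and 26.8 CPM in control lung. Traf2, which links the receptors to NF-kB and JNK, had 21.6, 21.6 and 18.0 CPM in tumours and 18.0, 21.8 and 21.1 CPM in control lung. Traf3, a brake on the noncanonical NF-kB pathway, had 27.8, 29.1 and 20.6 CPM in tumours and 28.6, 32 and 33.4 CPM in control lung. Libraries of the groups overlapped for all 3. Their log2 fold changes were 0.22 ± 0.14, 0.01 ± 0.16 and -0.28 ± 0.17, with adjusted p of 0.249, 0.973 and 0.238.

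Grouped by role, a grouping made after the values were seen, the changed members went both ways in 3 groups. Of 5 death domain receptors tested, Tnfrsf10b and Tnfrsf21 rose and Fas fell. Of 3 decoy receptors, Tnfrsf23 rose. Among 5 costimulatory ligands of T cells Tnfsf9 rose and Tnfsf14 fell, and among 6 costimulatory receptors Tnfrsf9 rose while Tnfrsf14 and Tnfrsf8 fell. Of 6 members of the TNF and lymphotoxin system, Ltb fell and the other 5 did not pass the test. Beside these counts, 18.1% of all genes tested were higher and 23.8% lower.

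Ordered by level per kb of exon, Tnfrsf1a led in tumours at 22.3 ± 3.65 CPM per kb, followed by Tnfsf13, Tnfrsf21, Tnfrsf12a, Ltbr, Tnfsf9 and Tnfrsf1b. Control lung was led by Tnfsf10 at 31.1 ± 3.23 CPM per kb, followed by Tnfrsf1a, Tnfrsf1b, Fas, Ltbr and Tnfrsf14. Neighbours in the order overlapped between libraries in 40 of 41 places in tumours and in 38 of 41 in control lung. The place without overlap in tumours lies between Tnfrsf1b and Tnfrsf10b, and in control lung Tnfsf10 stood clear of Tnfrsf1a, Tnfrsf1a of Tnfrsf1b and Lta of Tnfsf18.

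Setting each ligand against its receptor within a library gives a measure that does not depend on library size. The log2 ratio of Tnfsf10 to Tnfrsf10b in level per kb was -1.44, -1.14 and -1.20 in tumours and 4.69, 4.75 and 4.52 in control lung. Ligand transcripts were thus below receptor transcripts in every tumour and above them in every control. Against the decoys, Tnfsf10 to Tnfrsf23 averaged -0.42 ± 0.787 in tumours and 5.50 ± 0.496 in control lung, Tnfsf10 to Tnfrsf22 0.56 ± 0.969 in tumours and 4.65 ± 0.0772 in control lung, and Tnfsf10 to Tnfrsf11b 1.18 ± 0.860 in tumours and 5.73 ± 0.457 in control lung (SD, n = 3 each), all without overlap. Tnfsf12 to Tnfrsf12a also lay on opposite sides of 0, at -2.10, -1.23 and -2.10 in tumours and 0.34, 0.91 and 0.62 in control lung. Exons of other names overlap 48.3% of the exon bases of Tnfsf12 and 8.1% of those of Tnfrsf12a. The side of 0 on which this ratio lies can therefore depend on shared reads. For Tnfsf9 to Tnfrsf9 the ratio was 3.34, 4.05 and 5.02 in tumours and 1.99, 1.63 and 1.6 in control lung, so the ligand exceeded the receptor more in tumours although both rose. Ltb to Ltbr averaged -4.14 ± 0.883 in tumours and -1.22 ± 0.440 in control lung, and Tnfsf14 to Ltbr -6.62 ± 0.816 in tumours and -3.33 ± 0.128 in control lung (SD, n = 3 each). No overlap was seen in these pairs. Cd40lg to Cd40, in which both genes fell, averaged -1.69 ± 0.513 in tumours and -2.05 ± 0.351 in control lung, with overlap. Tnfsf11 to Tnfrsf11a, in which both rose, averaged -2.06 ± 0.899 in tumours and -2.87 ± 0.384 in control lung, again with overlap. The pairs were not tested, since their members had been chosen with the changes known.

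**Figure D4:**
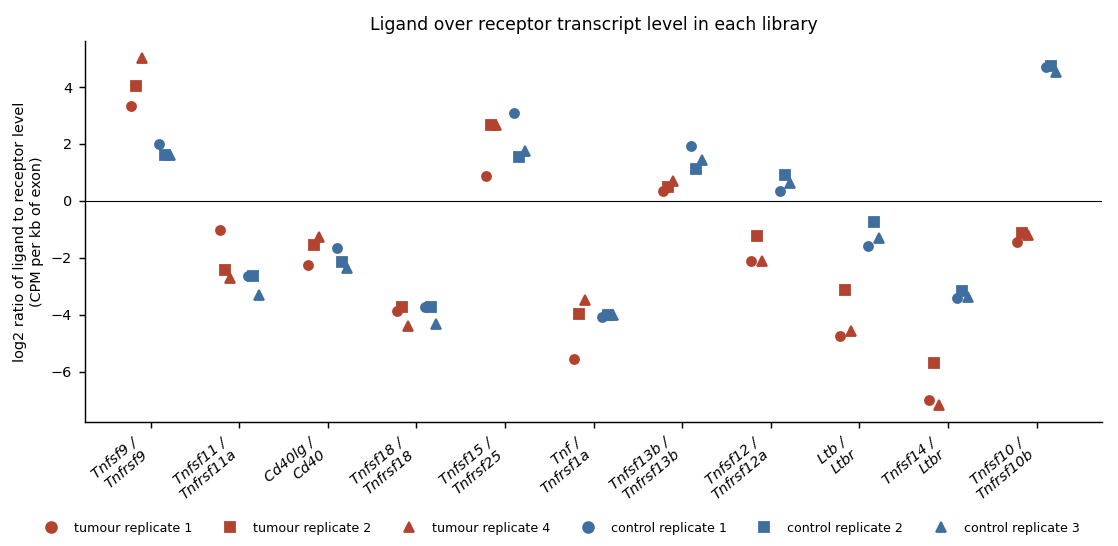
Log2 ratio of ligand to receptor transcript level (CPM per kb of exon, vertical axis) in each library for 11 pairs, red for tumours on the left of each pair and blue for control lung on the right; shapes give the replicate. Tnfsf10 over Tnfrsf10b averages -1.26 in tumours and 4.65 in control lung.

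Of 10 pairs of neighbouring members with both tested, 8 had log2 fold changes of the same sign and 2 of opposite sign. Several of the 8 hold Tnf, Tnfrsf1a, Tnfrsf1b or Tnfrsf18, which lie near 0 and changed sign under some alternatives. The share for other pairs of genes was not computed, so the count is not read as a link between neighbours. Tnfsf9 and Tnfsf14 lie 81734 bases apart on chromosome 17 (mm9) and differed in sign, at 4.16 and -2.87 in log2 fold change. Ltb, Tnf and Lta, which lie side by side on chromosome 17, had -2.53, -0.11 and -0.28. Tnfsf13 and Tnfsf12, 465 bases apart on chromosome 11, were the other pair of opposite sign, at 0.43 and -1.15. Tnfrsf1b and Tnfrsf8 lie 20266 bases apart on chromosome 4 and had -0.10 and -1.82. Ltbr and Tnfrsf1a, 35476 bases apart on chromosome 6, had 0.25 and 0.03, and Tnfrsf26, Tnfrsf22 and Tnfrsf23 on chromosome 7 had 1.29, 0.57 and 2.34.

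Genes of the pathway outside the family were read from 6 lists. Of 95 tested, 46 changed, 19 higher and 27 lower, which is 48.4% beside 42.0% of all genes. Scaled by library size alone, 14 were higher and 34 lower. The superfamily genes that the name rule leaves out gave 2 higher and 3 lower of 9. On the log2 scale Edaradd, the adaptor of the ectodysplasin receptor, rose by 1.96, and Rell2, a relative of the receptor Relt, by 1.30 (adjusted p = 0.00473 and 0.00829). Eda2r, an ectodysplasin receptor, was at 0.64 (adjusted p = 0.297). Tumour replicate 1 had 12.7 CPM of Eda2r against 3.72 and 4.43 CPM in tumour replicates 2 and 4, and without it the log2 fold change was -0.10. Cd27, a costimulatory receptor of T cells, fell by 1.66 and Fasl, the ligand of Fas, by 2.73 (adjusted p = 0.00158 and 0.0370). Fasl was counted at 25 reads in tumours and 173 in control lung. Its adjusted p was 0.0540 and 0.0924 without tumour replicates 1 and 4 in turn, and 0.152 and 0.0830 without control replicates 2 and 3, while leaving out tumour replicate 2 gave a log2 fold change of -4.69. Rell1 fell by 0.57 (adjusted p = 0.0439), and its adjusted p lay between 0.0538 and 0.156 whichever of the 6 libraries was left out.

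Adaptors and death signalling genes next to the receptors gave 7 higher and 4 lower of 34. That is 32.4% changed, beside 42.0% of all genes. In log2 units Map3k5 (ASK1), a stress kinase, rose by 0.84 ± 0.13 and Traf4 by 1.36 ± 0.27 (adjusted p = 0.00128 and 0.00459). Traf3ip3 fell by 2.59 ± 0.31, Traf3ip1 by 1.19 ± 0.20 and Map3k14, the kinase NIK of the noncanonical NF-kB pathway, by 1.07 ± 0.21 (adjusted p = 0.000353, 0.00170 and 0.00417). Fadd and Casp8, which form the death-inducing complex with Fas and DR5, were at 0.45 and 0.10 in log2 fold change (adjusted p = 0.0752 and 0.662).

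The NF-kB core gave 1 higher and 7 lower of 16 (50% changed, beside 42.0% of all genes), with a median of -0.56. Nfkbiz fell by 1.42 ± 0.16, Nfkbia, the inhibitor IkB alpha, by 1.32 ± 0.23 and Nfkb1, the precursor of p50, by 0.80 ± 0.15 (adjusted p = 0.000241, 0.00224 and 0.00367). Bcl3, an IkB relative that acts in the nucleus, rose by 0.97 ± 0.22 (adjusted p = 0.00860). Tbk1 and Nfkbib were at 0.09 and 0.05 (adjusted p = 0.625 and 0.908).

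Genes known to respond to TNF went both ways, 7 higher and 9 lower of 24, with a median of -0.60. That is 66.7% changed, beside 42.0% of all genes. The neutrophil chemoattractant Cxcl1 rose by 4.66 ± 0.52, the siderophore-binding Lcn2 by 4.53 ± 0.45 and the survival gene Bcl2a1b by 3.07 ± 0.38 (adjusted p = 0.000244, 0.000137 and 0.000416); without tumour replicate 2 the value of Lcn2 was 3.93. Ier3, Gadd45b and the gelatinase gene Mmp9 fell by 2.46 ± 0.19, 2.13 ± 0.18 and 2.32 ± 0.26 (adjusted p = 4.60e-05, 7.35e-05 and 0.000247). Cxcl1 averaged 19.8 ± 9.46 CPM in tumours and 0.799 ± 0.473 CPM in control lung (SD, n = 3 each), while neutrophil markers were lower in tumours.

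The list of lymphoid tissue organisation holds targets of the lymphotoxin beta receptor together with markers of lymphoid stroma. It gave 1 higher and 2 lower of 5 tested. That is 60% changed, beside 42.0% of all genes. Il7, a lymphocyte survival factor, rose by 1.41 ± 0.21 (adjusted p = 0.000976). Cr2 and Fcer2a, genes of B cells and follicular dendritic cells, fell by 3.26 ± 0.29 and 2.07 ± 0.55 (adjusted p = 8.20e-05 and 0.0162). The adjusted p of Fcer2a was 0.0577 and 0.0723 without control replicates 2 and 3 in turn, and leaving out tumour replicate 2 gave a log2 fold change of -2.97. The follicle chemokine Cxcl13 was at -1.83 (adjusted p = 0.0602), and at -3.03 (adjusted p = 0.00318) without tumour replicate 4. Chst4 was at 0.32 (adjusted p = 0.767), and at -0.05 without control replicate 3 and -0.0045 without control replicate 1. Ccl19 and Ccl21a are listed with 0 reads in all 6 libraries. Shared sequence was measured for the members alone, so these counts of 0 are not read as a lack of expression. Shedding enzymes and their partners gave 1 higher and 2 lower of 7, or 42.9% changed, near the share of all genes. Rhbdf2, a partner of the TNF-releasing protease Adam17, rose by 0.81 ± 0.18 (adjusted p = 0.00807), while Adam17 and Adam10 were at 0.39 and 0.43 (adjusted p = 0.0582 and 0.148). Without tumour replicate 1 the adjusted p was 0.0154 for Adam17 and 0.00661 for Adam10. Timp3, an inhibitor of Adam17, fell by 2.83 ± 0.21 and Adam8 by 2.03 ± 0.29 (adjusted p = 3.82e-05 and 0.000883).

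**Figure D5:**
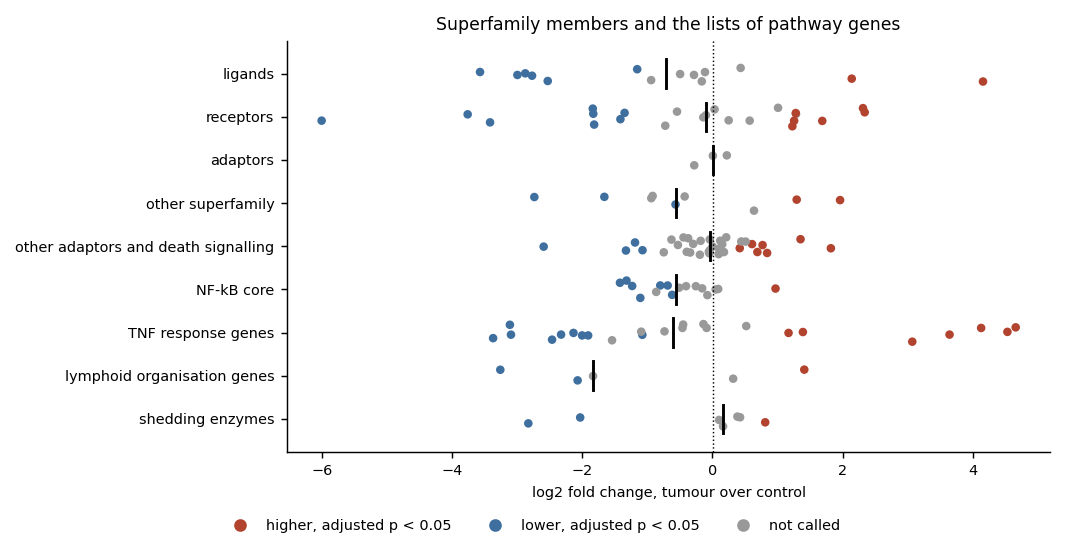
Log2 fold change (tumour over control, horizontal axis) of each gene tested, by row for the members and the 6 pathway lists; red is higher and blue lower in tumours at an adjusted p under 0.05, grey neither, and black bars are medians. The medians run from -1.83 for the lymphoid organisation genes to 0.16 for the shedding enzymes.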

How the data were processed

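Total RNA of lung or lung tumour was made into libraries by the submitters with standard Illumina protocols, per the labels' protocols. Raw read counts per gene name were deposited by the authors, who made them with featureCounts 1.6.5 on GENCODE vM1 exons, per the file headers. Reads on several names were counted for each and no strand setting was given, per the same headers, so overlapping and antisense genes can share reads. STAR and the builds GRCm38 and mm9 are named in the submitters' processing notes; the table's coordinates are mm9, and no version of the aligner is given in these sources.

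Of the 33924 names, 7010 had no read, and 20001 passed a filter on low counts (filterByExpr, minimum count 10) and were tested with edgeR 4.0.16 (R 4.3.3): libraries were scaled by TMM, and the quasi-likelihood F test compared tumour with control in a design that held the group alone. Adjustment was by Benjamini-Hochberg over all genes tested. Genes with an adjusted p under 0.05 are called changed. CPM values are after TMM scaling, standard errors come from the F statistic, and levels per kb use the deposited exon lengths. Within a group, pairs of libraries differed beyond counting noise (chi-square divided by its degrees of freedom, 59.1 to 258), so none was merged. Depth of 38996532 to 62336537 reads sets the precision of the low members.

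Values in every library are given for each changed member and, whatever their p, for 17 members named by a rule; of each pathway list, the 3 genes with the smallest p in each direction, except 1 that is not reported here. Tnfrsf26, Fadd, Casp8, Foxp3 and Sdc1 were added after their values were seen, as were the alternatives for single pathway genes. Members and lists were chosen with earlier results of these data known. The test was tested on simulated data. Alternatives were DESeq2 1.42.0, limma-voom (limma 3.58.1), other scalings and filters, a stricter threshold, a 2-fold test, each library left out and a replicate block. Shared sequence was measured as 32-base words of GENCODE M21 transcripts.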

Additional observations from a re-analysis of the deposited data

How the results depend on the processing

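With 22 of 40 members, 46 of 95 pathway genes and 8397 of all genes changed, the counts stayed within 1.5 times under DESeq2 (25, 53 and 9311), limma-voom, other scalings and filters and an adjusted p under 0.01 (19, 35 and 5628). They fell outside it when a change beyond 2-fold was tested (12, 22 and 3965) and with a replicate block (13, 26 and 3641). The numbers were not taken to pair the libraries: only 1 and 2 are shared, and deviations of same-numbered libraries correlated at -0.18 and -0.01. Correlations of differently numbered libraries ran from -0.12 to 0.18, so these few values cannot decide whether libraries were paired. The replicate block lost Tnfrsf11a, Tnfrsf12a, Tnfrsf14, Tnfrsf17, Tnfrsf8, Tnfrsf9, Tnfsf11, Tnfsf12 and Tnfsf9. In that fit a number held by 1 group alone does not bear on the tumour difference. That difference therefore rests on the libraries numbered 1 and 2, with fewer degrees of freedom. How much of the loss each of these accounts for was not tested. Leaving out each library in turn gave 20 to 23 members, 35 to 54 pathway genes and 6421 to 9436 genes. Scaled by library size only, the median of all genes was -0.10 in place of 0.01, and 14 pathway genes were higher and 34 lower (29.2% higher, against 41.3%), while 8 members were higher and 15 lower. No changed member changed direction; Tnf, Tnfsf18, Tnfrsf18, Tnfrsf1a, Tnfrsf1b and Traf2, which lie near 0, changed sign under some. In all, 25 of 40 kept their side of the threshold under every alternative. DESeq2 also called Tnfrsf11b, Tnfrsf26 and Tnfsf8. Depth limits Cd40lg, Tnfrsf17, Tnfrsf8 and Tnfrsf13c, with 26 to 41 reads over the tumours.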
